A study of Mus musculus with 12 samples.

Results

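The genes described here are 10 immune checkpoint ligands that tumor cells can carry, Cd274, Pdcd1lg2, Cd276, Cd47, Lgals9, Nt5e, Pvr, Nectin2, Cd200 and Vsir, taken by gene symbol from the 34513 genes of the deposited count table. All 10 symbols were found, each on 1 row. Of these, 8 passed the filter on low counts and entered the tests, and 6 (Cd274, Cd276, Cd47, Lgals9, Pvr and Nectin2) were over a floor of 3 counts in every library. The counts came from bulk RNA sequencing of 3 mouse lines grown in culture: Melan-A (written MelanA in the labels), a line labelled nontumorigenic, and the melanoma lines B16F0 and B16F10, both derived from the B16 mouse melanoma. Each line was sequenced with no treatment and with SX-682, an inhibitor of the chemokine receptors CXCR1 and CXCR2, which makes 6 groups of 2 libraries. The labels name no vehicle, dose or time for these cultures and do not say whether the 2 libraries of a group came from separate cultures, so the p-values measure the spread between these libraries, which may be technical. Cultured lines hold no infiltrating lymphocytes, so the receptors that bind these ligands on immune cells are outside this system.

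Immune checkpoint ligands are surface or secreted proteins through which a cell restrains the immune cells that touch it. PD-L1 (Cd274) and PD-L2 (Pdcd1lg2) bind PD-1 on T cells, and Cd274 transcription is best known for its induction by interferon-gamma through JAK kinases and IRF1. Poliovirus receptor (Pvr, CD155) and Nectin2 (CD112) bind the activating receptor CD226 and the inhibitory receptor TIGIT, CD47 gives macrophages a signal through SIRP-alpha not to engulf the cell, and CD73 (Nt5e) makes adenosine from AMP.

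Library totals ran from 48876982 to 85322092 counts (median 66943832). Every library resembled its own replicate more than any other library, and replicates were close (biological coefficient of variation 2.78%), so that even small changes could pass the threshold. Of the 10 melanocyte markers, all were over the floor in Melan-A controls, 9 in B16F0 controls and 8 in B16F10 controls. Their summed level was 1348 to 1377 CPM (counts scaled to the library total) in Melan-A controls, against 18868 to 18952 in B16F0 and 24661 to 24695 in B16F10 controls. With SX-682 the sum was 1350 to 1358 CPM in Melan-A, 16031 to 16223 in B16F0 and 15070 to 15313 in B16F10 cells, and 8 of the 9 markers tested fell in each B16 line, with median log2 changes of -0.33 and -0.84. The pigment gene Pmel had 8.11 CPM in Melan-A controls and 4512 in B16F0 controls, while Sox10, which specifies the lineage, had 670 and 453. Ptprc, the pan-leukocyte gene CD45, had 0 to 22 counts in every library. Fibroblast markers summed to 114 to 116 CPM in Melan-A controls, mostly Col3a1 and Col1a1, and to 8.43 to 16.7 CPM in the controls of the B16 lines. In Melan-A cells, SX-682 lowered the fibroblast sum to 93.6 to 94.9 CPM, while the leukocyte sum went from 25.3 to 25.5 CPM in controls to 51.1 to 52.4 (1 of 4 markers tested rose and 1 fell) and the endothelial sum from 17.6 to 18.7 to 26.7 to 27.3 (1 of 4 rose). In B16F0 cells the leukocyte sum went from 10.6 to 12.2 CPM to 14.3 to 16.4 and the endothelial sum from 5.41 to 5.55 to 8.32 to 8.41. In B16F10 cells the leukocyte sum went from 26.0 to 27.1 CPM in controls to 24.6 to 25.5. The endothelial sum was highest in B16F10 cells, at 53.8 to 54.3 CPM in controls and 59.2 to 61.8 with SX-682. The part of these marker differences in the results was not tested. In bulk RNA, fewer cells with a transcript and less of it per cell cannot be told apart.

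The members lie on 6 chromosomes of GRCm38 (mm10). Cd274, at chr19:29367455-29388095 on the plus strand, has Pdcd1lg2 as a neighbor 22.8 kb downstream at chr19:29410919-29471161. Nectin2, at chr7:19716644-19750483, and Pvr, at chr7:19903578-19921160, both on the minus strand, are 153.1 kb apart. Cd47 is at chr16:49800533-49915010, Cd200 at chr16:45382135-45409053, Cd276 at chr9:58524298-58555437, Nt5e at chr9:88327197-88372092, Lgals9 at chr11:78962974-78984946 and Vsir at chr10:60346851-60372684. In GENCODE M21, annotated transcripts on the opposite strand covered 14.1% of the exon bases of Cd274, 11.4% of those of Cd276 and 3.86% of those of Nectin2, and none of the exon bases of the other 7 members. Whether reads were counted by strand is not given in the sources used here, so reads of the opposite strand cannot be told apart from reads of these 3 genes. The opposite-strand gene that shares exon bases with Cd276, Gm10657, had at most 50 counts in a library, and the one at Nectin2, Gm20512, at most 6. For the one at Cd274, AC119228.1, no counts were found under that name. How reads in shared exon bases were assigned is not known, so these counts do not bound the opposite-strand reads within a member's count.

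The promoters shown are those of Cd274 and Cd47, which rose with SX-682 in all 3 lines, and of Lgals9, which fell in all 3. Each is the 250 bases before the RefSeq transcription start (RefSeq, GRCm38.p6), printed 5′ to 3′ on the strand of the gene. RefSeq promoters were matched for 9 of the 10 members, and Pvr had no entry. Capitals mark matches on either strand to an interferon regulatory factor (IRF) element, GAAANNGAA, a STAT element, TTCNNNGAA, the core of a cyclic AMP response element, TGACG, an ATF4-CHOP element, TGATGNAAN, or a GC box, GGGCGG. These letters occurred in 7.13%, 7.02%, 17.8%, 3.44% and 32.7%, respectively, of the 32851 mouse promoter windows of this length. Other elements were searched as well and are not capitalized. The AP-1 element TGANTCA occurred in 6.75% of the windows, the E-box CACGTG in 6.02%, the TATA box TATAAA in 12.4% and the ETS core CCGGAAG in 6.91%. An ETS core in the Cd47 window was their only match among these 3 promoters.
Cd274, chr19:29367188-29367437, plus strand: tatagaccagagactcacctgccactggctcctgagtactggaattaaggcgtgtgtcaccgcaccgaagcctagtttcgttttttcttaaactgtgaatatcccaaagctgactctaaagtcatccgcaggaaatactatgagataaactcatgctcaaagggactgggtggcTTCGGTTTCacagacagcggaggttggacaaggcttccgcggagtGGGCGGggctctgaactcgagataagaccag
Lgals9, chr11:78984925-78985174, minus strand: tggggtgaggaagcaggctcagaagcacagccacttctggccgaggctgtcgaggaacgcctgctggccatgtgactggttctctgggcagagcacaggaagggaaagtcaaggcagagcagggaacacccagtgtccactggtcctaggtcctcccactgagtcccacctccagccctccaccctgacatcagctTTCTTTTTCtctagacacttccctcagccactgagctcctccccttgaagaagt
Cd47, chr16:49855404-49855653, plus strand: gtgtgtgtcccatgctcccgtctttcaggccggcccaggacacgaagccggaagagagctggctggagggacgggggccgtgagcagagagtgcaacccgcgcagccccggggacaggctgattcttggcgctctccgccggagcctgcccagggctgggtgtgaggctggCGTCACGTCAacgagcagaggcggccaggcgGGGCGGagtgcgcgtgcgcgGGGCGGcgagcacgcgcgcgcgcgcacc
The Cd274 window held 1 match to the IRF element and 1 GC box, and the Lgals9 window 1 match to the IRF element. The IRF element was shortened by 1 base after a longer form was found in the Lgals9 but not in the Cd274 window. The share of 7.13% is therefore no test of the Cd274 match. The Cd47 window held 2 adjacent cyclic AMP response cores and 2 GC boxes. The windows of Nectin2, which also rose in all 3 lines, and of Cd276, which also fell in all 3, are not shown. Both held GC boxes and no match to the IRF element or the other capitalized elements. The RefSeq start of Cd47 used here lies inside the gene as the count table gives it, which begins further upstream. A match in these letters is a description of the window and not a binding site.

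Levels were first compared between members. Per length, as RPKM (reads per kilobase of exon, scaled to the library total), Lgals9, the galectin that binds TIM-3, and Nectin2 were the highest members in the controls of every line. In untreated Melan-A cells, mean levels were 62.2 ± 0.656 RPKM (SD, n = 2, as for all levels below) for Lgals9, 34.7 ± 0.0116 for Nectin2, 13.6 ± 0.0307 for Cd276, 11.3 ± 0.432 for Cd47, 9.59 ± 0.394 for Pvr and 1.42 ± 0.0965 for Cd274. The libraries of neighbors in this order did not overlap. Cd274 was thus the lowest of the 6 expressed ligands before treatment. Untreated B16F0 cells had 29.7 ± 1.27 RPKM of Lgals9, 13.8 ± 0.718 of Nectin2, 9.02 ± 0.422 of Cd276, 8.99 ± 0.215 of Pvr, 7.27 ± 0.0730 of Cd47 and 1.99 ± 0.0423 of Cd274. Here Cd276 and Pvr could not be ordered, since their libraries overlapped. Untreated B16F10 cells had 21.7 ± 0.253 RPKM of Lgals9, 20.6 ± 0.273 of Nectin2, 11.6 ± 0.287 of Pvr, 10.004 ± 0.121 of Cd276, 9.13 ± 0.128 of Cd47 and 2.67 ± 0.0985 of Cd274.

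With SX-682 the order changed. In B16F10 cells with SX-682, Nectin2 was highest at 23.5 ± 0.196 RPKM, followed by Lgals9 at 14.9 ± 0.0649, Cd47 at 12.2 ± 0.392, Cd274 at 10.1 ± 0.373, Pvr at 8.43 ± 0.0448 and Cd276 at 6.86 ± 0.0322. Cd274 thereby moved from the sixth place to the fourth, above Pvr and Cd276, with no overlap between the libraries of neighbors. In B16F0 cells with SX-682 Cd274 reached 6.29 ± 0.0872 RPKM, under Cd276 at 7.37 ± 0.0291, and in Melan-A cells with SX-682 it reached 2.83 ± 0.0656 RPKM, under Cd276 at 11.2 ± 0.156. In both of these lines it remained the lowest of the 6.

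**Figure D1:**
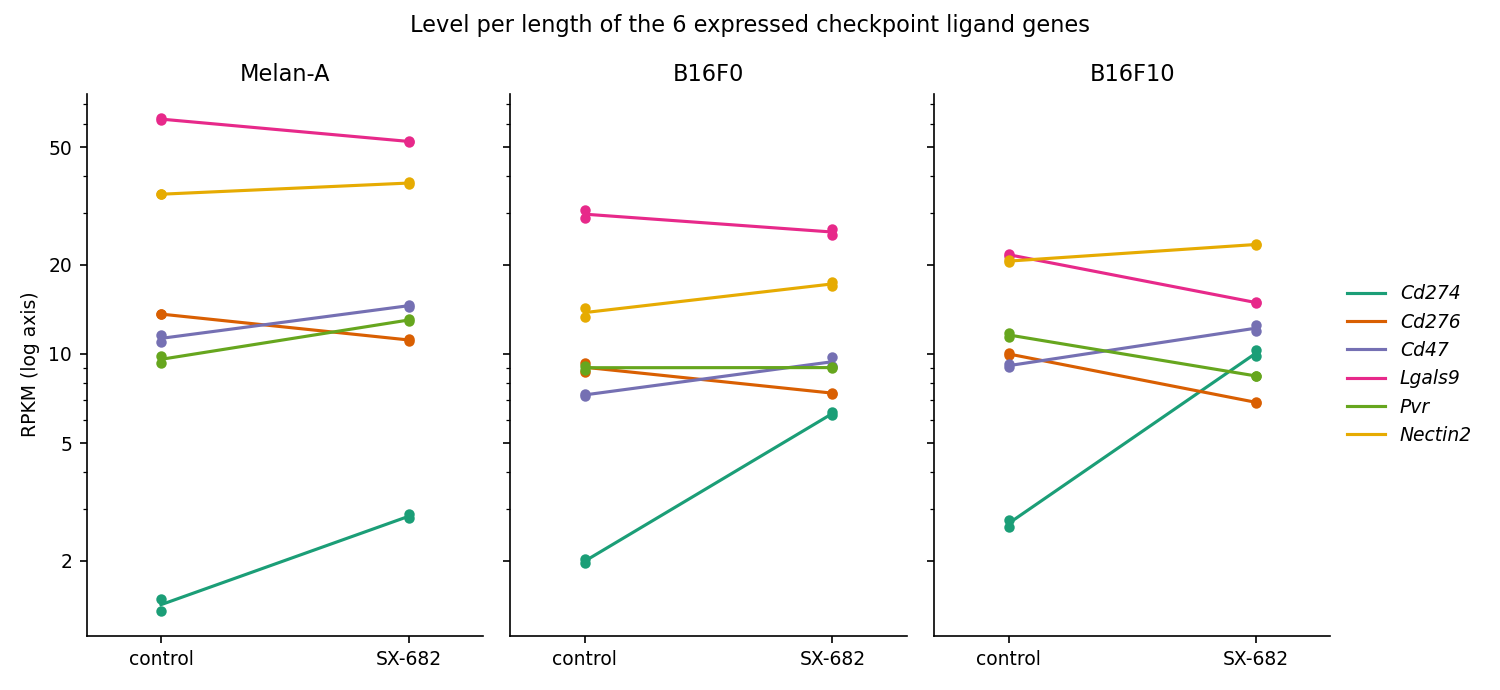
Level per length (RPKM, log axis) of the 6 ligand genes over the floor in every library, in controls and with SX-682, by line. Points are libraries and lines join group means. Cd274 starts lowest in every line, at 1.42, 1.99 and 2.67 RPKM, and in B16F10 cells rises past Pvr and Cd276 to 10.1.

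The effect of SX-682 on each ligand was then tested in each line with edgeR's quasi-likelihood test. SX-682 raised Cd274, Cd47 and Nectin2 and lowered Cd276 and Lgals9 in all 3 lines, while Pvr rose in Melan-A cells, did not pass the test in B16F0 cells and fell in B16F10 cells. In Melan-A cells 6 of the 8 members tested were called at an adjusted p under 0.05, 4 higher and 2 lower. Over all 18338 genes tested there, 48.2% were called, 23.4% higher and 24.7% lower. In B16F0 cells 5 of 8 were called, 3 higher and 2 lower, against 50.1% of all genes, 25.1% higher and 25.0% lower. In B16F10 cells 6 of 8 were called, 3 higher and 3 lower, against 50.8% of all genes, 25.5% higher and 25.3% lower. With a median change of all genes of 0 in each line, the median log2 change of the 8 members was 0.12 for Melan-A, 0.35 for B16F0 and -0.23 for B16F10 cells. Over the 6 members with more than 3 counts in every library, which leaves out Cd200 and Vsir, it was 0.25, 0.16 and -0.14. Calls in all 3 lines with the same direction were made for 3 members that rose and 2 that fell. Over all genes, 11.3% rose in all 3 lines and 11.7% fell in all 3. The called members are the same ones whose SX-682 and control libraries did not overlap, 6, 5 and 6 of 8, and 72.7%, 70.4% and 69.4% of all genes did not overlap in Melan-A, B16F0 and B16F10 cells. When a log2 change of at least 0.5 in size was also required, 1, 1 and 3 members were called, against 16.3%, 19.4% and 21.5% of all genes.

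Cd274, which encodes PD-L1, was the member that changed most. Melan-A controls had 423 and 490 counts (4.90 and 5.39 CPM) and Melan-A with SX-682 742 and 756 (10.4 and 10.1 CPM). B16F0 controls had 533 and 493 counts (7.11 and 7.33 CPM) and B16F0 with SX-682 1487 and 1108 (22.6 and 23.02 CPM). B16F10 controls had 601 and 603 counts (9.94 and 9.43 CPM) and B16F10 with SX-682 2156 and 2191 (35.6 and 37.5 CPM). In each line both treated libraries lay well above both controls, and the treated Melan-A libraries were only slightly higher than untreated B16F10. The log2 change was 0.99 ± 0.080 (SE) for Melan-A, 1.66 ± 0.075 for B16F0 and 1.91 ± 0.071 for B16F10 cells, or 1.99-fold, 3.15-fold and 3.77-fold, with adjusted p of 1.15e-11, 1.88e-17 and 1.34e-19. Ranked by size of change among all tested genes, Cd274 was number 2109 for Melan-A, 1511 for B16F0 and 1370 for B16F10 cells. This ranking includes genes near the floor, whose fitted changes can be large on few counts. Cd200, for example, was number 749 for B16F0 on 1 count in a treated library and was not called.

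Pdcd1lg2, the neighbor of Cd274 that encodes PD-L2, had 0 to 4 counts in every library. It was at or near the floor throughout and was not tested. A change of Pdcd1lg2 beside that of Cd274 was not detectable at this depth, where 3 counts correspond to 0.033 to 0.062 CPM.

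Cd276 (B7-H3), a B7 family protein with reported inhibitory action on T cells, fell in all 3 lines. Melan-A controls had 49.8 and 49.98 CPM and Melan-A with SX-682 40.4 and 41.2. B16F0 went from 34.1 and 31.9 CPM to 26.9 and 27.0, and B16F10 from 36.3 and 36.9 CPM to 25.2 and 25.0. The libraries of each pair of groups were apart, and the fall was deepest in B16F10. The log2 change was -0.29 ± 0.044 for Melan-A, -0.29 ± 0.049 for B16F0 and -0.54 ± 0.049 for B16F10 cells, with adjusted p of 1.97e-06, 9.31e-06 and 9.28e-11.

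Lgals9 followed the same pattern. Its level went from 132.0 and 134.0 CPM to 111.3 and 112.2 in Melan-A cells. In B16F0 cells it went from 65.4 and 61.5 CPM to 54.1 and 56.3, and in B16F10 cells from 46.7 and 45.9 CPM to 31.8 and 32.0. The groups were apart in each line, with the 2 treated B16F10 libraries the lowest of the 12. The log2 changes were -0.25 ± 0.033, -0.20 ± 0.038 and -0.54 ± 0.041, with adjusted p of 2.03e-07, 3.58e-05 and 2.45e-12.

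Pvr was the only member called in opposite directions in different lines. Melan-A controls had 57.0 and 60.4 CPM of Pvr, and Melan-A with SX-682 80.6 and 78.9. B16F0 controls had 55.9 and 54.1 CPM, and B16F0 with SX-682 54.97 and 55.2. B16F10 controls had 72.2 and 69.8 CPM, and B16F10 with SX-682 51.4 and 51.8. The treated libraries were above the controls in Melan-A, between them in B16F0, and below them in B16F10. The log2 change was 0.44 ± 0.037 in Melan-A (adjusted p = 2.56e-11) and -0.46 ± 0.039 in B16F10 (adjusted p = 2.62e-11). In B16F0 it was 0.00091, with a 95% interval of -0.0805 to 0.0823, so that a change of the size seen in either other line lay outside the interval.

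Nectin2, which shares its receptors with Pvr, rose by small amounts in all 3 lines. Its level was 121.2 and 121.1 CPM in Melan-A controls and 131.1 and 133.2 with SX-682. In B16F0 cells it went from 50.01 and 46.5 CPM to 59.3 and 61.3, and in B16F10 cells from 72.7 and 71.3 CPM to 81.5 and 82.4. Treated and control libraries were apart in each line. The log2 changes were 0.13 ± 0.033, 0.32 ± 0.038 and 0.19 ± 0.036, with adjusted p of 0.00193, 2.47e-08 and 5.11e-05. In B16F10 cells, where Pvr fell from 11.6 to 8.43 RPKM, Nectin2 went from 20.6 to 23.5 RPKM.

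Cd47 rose by nearly the same amount in each line. Its level went from 72.8 and 69.0 CPM to 92.1 and 90.7 in Melan-A cells. In B16F0 cells it went from 45.3 and 46.0 CPM to 61.2 and 57.0, and in B16F10 cells from 56.7 and 57.9 CPM to 75.0 and 78.5. The treated libraries were higher than the controls throughout. The log2 changes were 0.37 ± 0.038, 0.38 ± 0.042 and 0.42 ± 0.040, with adjusted p of 1.55e-09, 6.70e-09 and 2.69e-10.

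The remaining members were low. Cd200, whose product restrains myeloid cells through the CD200 receptor, had 68 and 78 counts in Melan-A controls and 74 and 56 with SX-682. These groups overlapped, and the log2 change was 0.11 ± 0.42 (adjusted p = 0.856). In the 8 B16 libraries Cd200 had 0 counts except for 1 count in a single B16F0 library with SX-682. Vsir, which encodes VISTA, had 15 and 41 counts in Melan-A controls and 10 and 37 with SX-682, and 0 to 5 counts in each B16 library. Its replicates differed more from each other than its groups did, with a log2 change in Melan-A cells of 0.020 ± 0.70 (adjusted p = 0.989). Nt5e had 0 to 8 counts in every library and was not tested.

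**Figure D2:**
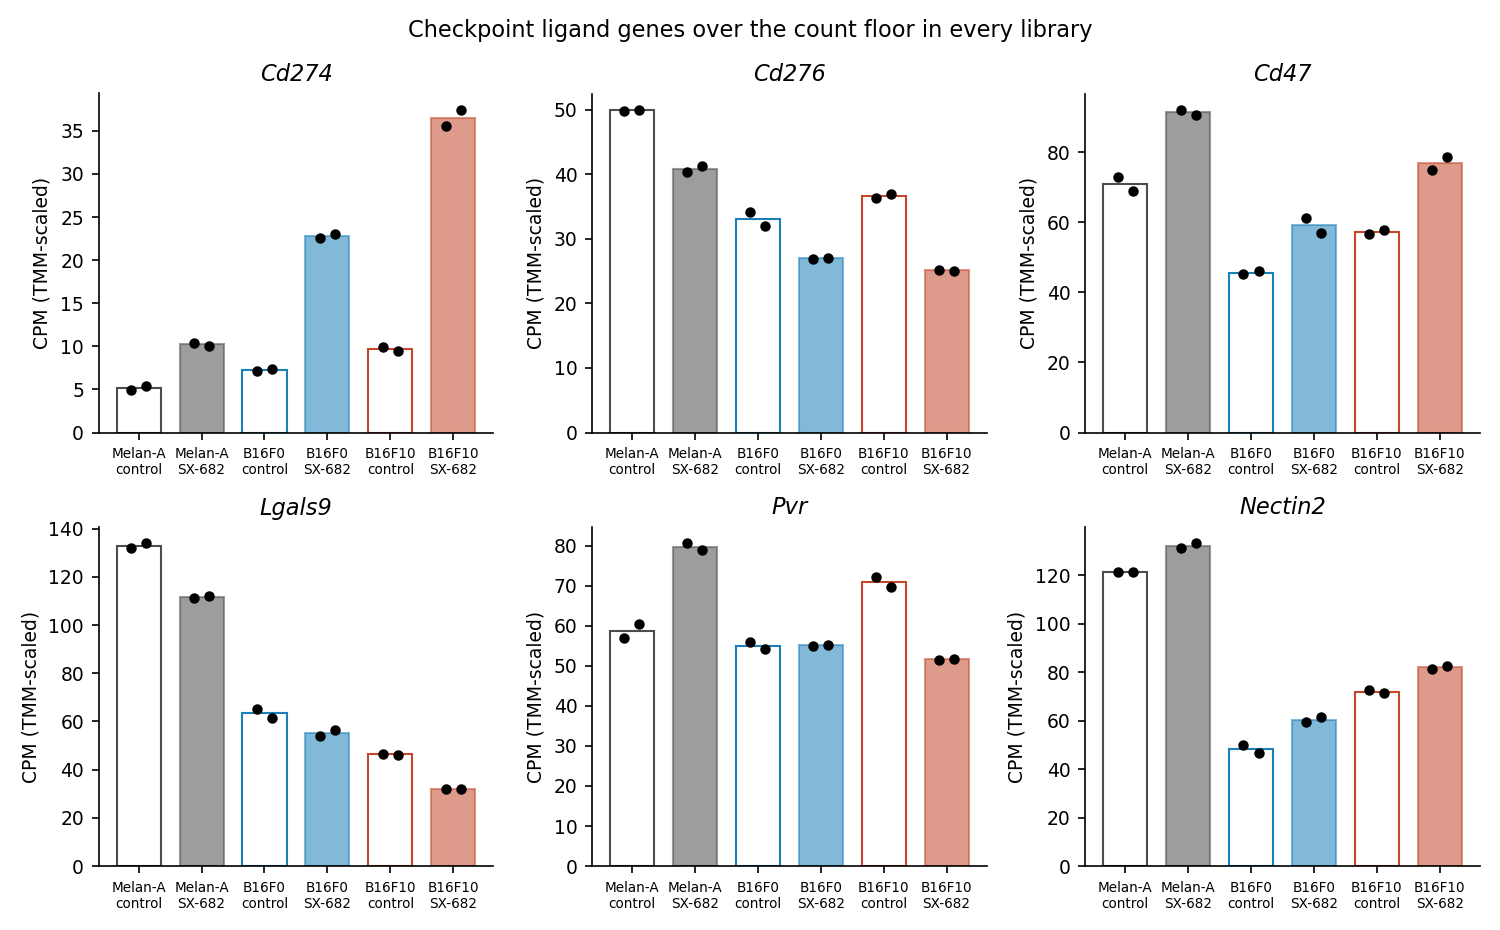
Level of the 6 expressed ligand genes in CPM after TMM scaling, with each axis starting at 0. Bars are group means of 2 libraries (open, control and filled, SX-682) and points are the libraries. Cd274 rises in every line, to 36.5 CPM in B16F10, and Pvr rises in Melan-A, is level in B16F0 and falls in B16F10.

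**Figure D3:**
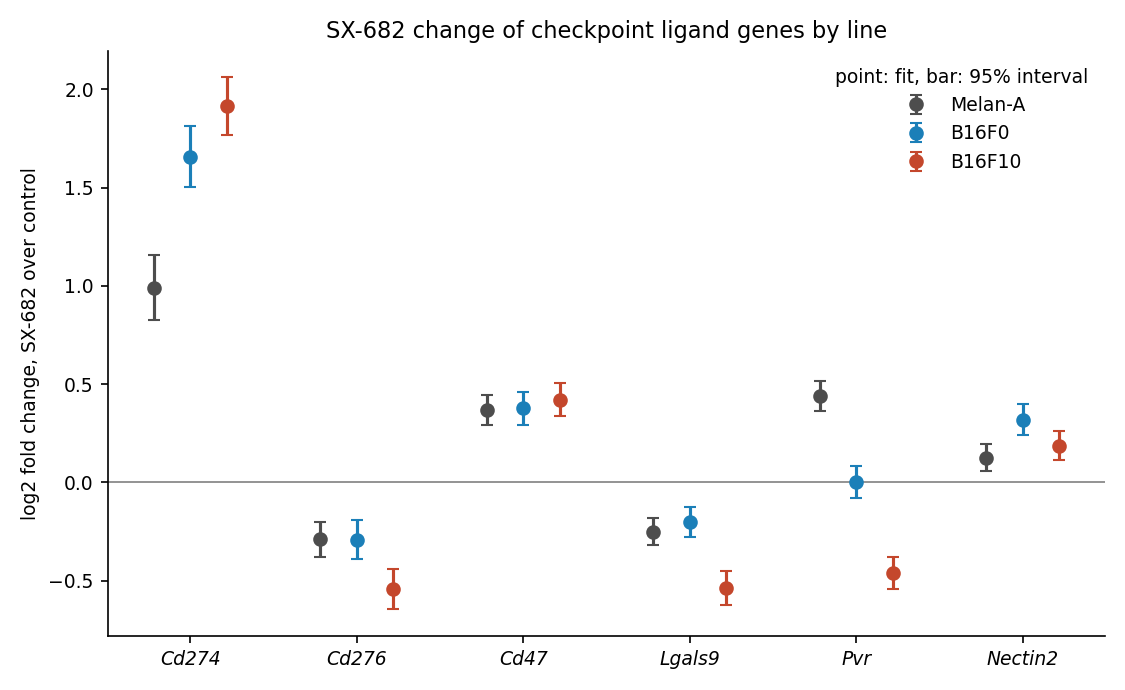
Log2 fold change with SX-682 over control for the 6 expressed ligand genes in each line, with 95% intervals from the edgeR fit. Cd274 lies between 0.99 and 1.91, and Pvr spans from 0.44 in Melan-A to -0.46 in B16F10.

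Whether the change with SX-682 differed among the 3 lines was tested directly. For 5 of the 8 members the change differed among the lines (Cd274, Cd276, Lgals9, Pvr and Nectin2), and 47.4% of all genes did so. The difference was clearest for Pvr (adjusted p = 1.51e-13) and Cd274 (adjusted p = 1.15e-07). In the comparison of B16F0 with Melan-A, 3 of 8 members were called, against 34.4% of all genes. In that of B16F10 with Melan-A 4 were called, against 33.8%, and in that of B16F10 with B16F0 3, against 30.3%. With a log2 difference of at least 0.5 also required, 2 members differed among the lines (20.4% of all genes), and 1, 2 and 0 were called in the 3 comparisons, against 12.3%, 11.8% and 8.41%. These comparisons share their libraries with each other.

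The rise of Cd274 was larger in both B16 lines than in Melan-A cells. On the log2 scale it exceeded that in Melan-A by 0.67 ± 0.11 in B16F0 (adjusted p = 1.57e-05) and by 0.92 ± 0.11 in B16F10 (adjusted p = 4.88e-08). The rise in B16F10 was 0.26 ± 0.10 greater than in B16F0, which did not pass the threshold (adjusted p = 0.0646, 95% interval 0.042 to 0.47), though it did when libraries were scaled by their totals alone (0.29, adjusted p = 0.0365). The change of Pvr differed from that in Melan-A by -0.44 ± 0.054 in B16F0 (adjusted p = 1.32e-07) and -0.90 ± 0.054 in B16F10 (adjusted p = 4.59e-14), and that in B16F10 differed from that in B16F0 by -0.46 ± 0.056 (adjusted p = 1.47e-07). The 3 lines thus separated pairwise for Pvr.

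Cd276 and Lgals9 fell further in B16F10 cells than in either other line. For Cd276 the log2 difference was -0.25 ± 0.066 against Melan-A (adjusted p = 0.00301) and -0.25 ± 0.070 against B16F0 (adjusted p = 0.00578). For Lgals9 it was -0.29 ± 0.053 against Melan-A (adjusted p = 6.55e-05) and -0.34 ± 0.056 against B16F0 (adjusted p = 2.19e-05). Nectin2 rose more in B16F0 than in Melan-A cells, by 0.19 ± 0.050 (adjusted p = 0.00265). That call was lost without the second B16F0 control library (0.14, adjusted p = 0.0573), as was the test over the 3 lines for Nectin2 (adjusted p 0.00625 with all libraries and 0.112 without this one). Cd47 gave no call among the lines (adjusted p = 0.694), with changes between 0.37 and 0.42.

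The untreated lines were compared next, which asks how the ligands differ between Melan-A, B16F0 and B16F10 cells before SX-682. Melan-A was the only nontumorigenic line, and both melanoma lines derive from B16. Tumorigenicity therefore cannot be told apart from other differences between these lines. Untreated B16F0 and B16F10 cells had more Cd274 and less Lgals9, Nectin2, Cd276, Cd47, Cd200 and Vsir than Melan-A cells. In B16F0 against Melan-A all 8 members tested were called, 1 higher and 7 lower, where 75.9% of all genes were called, 35.3% higher and 40.6% lower. In B16F10 against Melan-A all 8 were called, 2 higher and 6 lower, where 74.2% of all genes were called, 33.4% higher and 40.8% lower. In B16F10 against B16F0 6 were called, 5 higher and 1 lower, where 62.0% of all genes were called, 30.8% higher and 31.2% lower. Control libraries did not overlap for 8, 8 and 6 of the 8 members, and for 87.4%, 85.6% and 77.0% of all genes. The median log2 difference of the members was -0.85, -0.60 and 0.24, with -0.060, -0.10 and -0.0017 over all genes, and it was -0.62, -0.38 and 0.35 without Cd200 and Vsir. With a log2 difference of at least 0.5 also required, 6, 5 and 1 members were called, against 52.9%, 50.3% and 33.9% of all genes. When libraries were scaled by their totals alone, the median of all genes in B16F10 against Melan-A was -0.29, and the share of higher genes among those called fell from 45.0% to 34.3%.

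Cd274 was 0.49 ± 0.084 higher on the log2 scale in B16F0 than in Melan-A (adjusted p = 6.72e-06) and 0.91 ± 0.082 higher in B16F10 (adjusted p = 3.72e-11), and B16F10 exceeded B16F0 by 0.42 ± 0.081 (adjusted p = 3.94e-05). The line order of untreated Cd274 was therefore Melan-A, B16F0, B16F10, which is also the order of its fitted change with SX-682, although the changes in B16F0 and B16F10 did not differ past the threshold. The untreated level and the change rest on the same control libraries.

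Lgals9 had the reverse order. It differed from Melan-A by -1.07 ± 0.035 in B16F0 (adjusted p = 5.62e-22) and by -1.52 ± 0.036 in B16F10 (adjusted p = 2.09e-25), and B16F10 differed from B16F0 by -0.46 ± 0.038 (adjusted p = 8.75e-12). Treated B16F10 cells had 31.9 CPM of Lgals9 against 133 CPM in untreated Melan-A cells.

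Nectin2, Cd47 and Cd276 were highest in Melan-A and lowest in B16F0. Nectin2 differed from Melan-A by -1.33 ± 0.035 in B16F0 (adjusted p = 3.21e-24) and -0.75 ± 0.034 in B16F10 (adjusted p = 3.31e-18), and was 0.58 ± 0.037 higher in B16F10 than in B16F0 (adjusted p = 2.33e-14). Cd47 differed from Melan-A by -0.63 ± 0.040 in B16F0 (adjusted p = 6.92e-15) and -0.31 ± 0.039 in B16F10 (adjusted p = 4.92e-08), and was 0.33 ± 0.041 higher in B16F10 than in B16F0 (adjusted p = 4.32e-08). The treated B16F10 libraries, at 75.0 and 78.5 CPM of Cd47, were above the untreated Melan-A libraries at 72.8 and 69.0. Cd276 differed from Melan-A by -0.60 ± 0.045 in B16F0 (adjusted p = 5.74e-13) and -0.45 ± 0.045 in B16F10 (adjusted p = 3.87e-10). Its excess in B16F10 over B16F0, 0.15 ± 0.047 (adjusted p = 0.00714), was lost without the second B16F0 control library (0.11, adjusted p = 0.1254) and with scaling by library totals (0.056, adjusted p = 0.321).

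Pvr differed by at most 0.37 on the log2 scale between untreated lines. In B16F0 it differed from Melan-A by -0.094 ± 0.038 (adjusted p = 0.0276), a call that was lost without the second Melan-A control library (-0.048, adjusted p = 0.354), without the second B16F0 control library (-0.064, adjusted p = 0.240) and without the filter on low counts (-0.082, adjusted p = 0.101). In B16F10 it was 0.27 ± 0.038 higher than in Melan-A (adjusted p = 1.81e-07) and 0.37 ± 0.039 higher than in B16F0 (adjusted p = 1.28e-09). The line with the most untreated Pvr was thus the line in which it fell with SX-682, and both values use the same control libraries.

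Cd200 was detected in Melan-A cells and had 0 counts in all 4 untreated B16 libraries. Against the floor of 3 counts in each library, it was at least 19.4-fold lower in B16F0 (adjusted p = 1.89e-08) and at least 17.1-fold lower in B16F10 (adjusted p = 3.80e-08). Vsir had 4 and 0 counts in B16F0 controls and 3 and 0 in B16F10 controls, against 15 and 41 in Melan-A. It was lower in B16F0 by a log2 difference of -3.41 ± 0.98 (adjusted p = 0.00257), and it was also called lower in B16F10 (adjusted p = 0.00272). By counts summed over the 2 libraries of a group and scaled to depth, Melan-A had 11.2 times the level of B16F0 (exact 95% interval 4.15 to 42.7, counting error only) and 13.1 times that of B16F10 (4.26 to 65.5). Without the second Melan-A control library these ratios were 6.17 (1.97 to 25.6) and 7.20 (2.04 to 38.8), the fitted B16F0 difference was -2.56, and both Vsir calls were lost (adjusted p 0.0628 and 0.0584). The call for B16F10 was also lost without the second B16F10 control library (-2.61, adjusted p = 0.0577), and the B16F0 difference was -2.51 (adjusted p = 0.0499) without the second B16F0 control library. Without the first control library of either B16 line, that group had 0 counts.

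**Figure D4:**
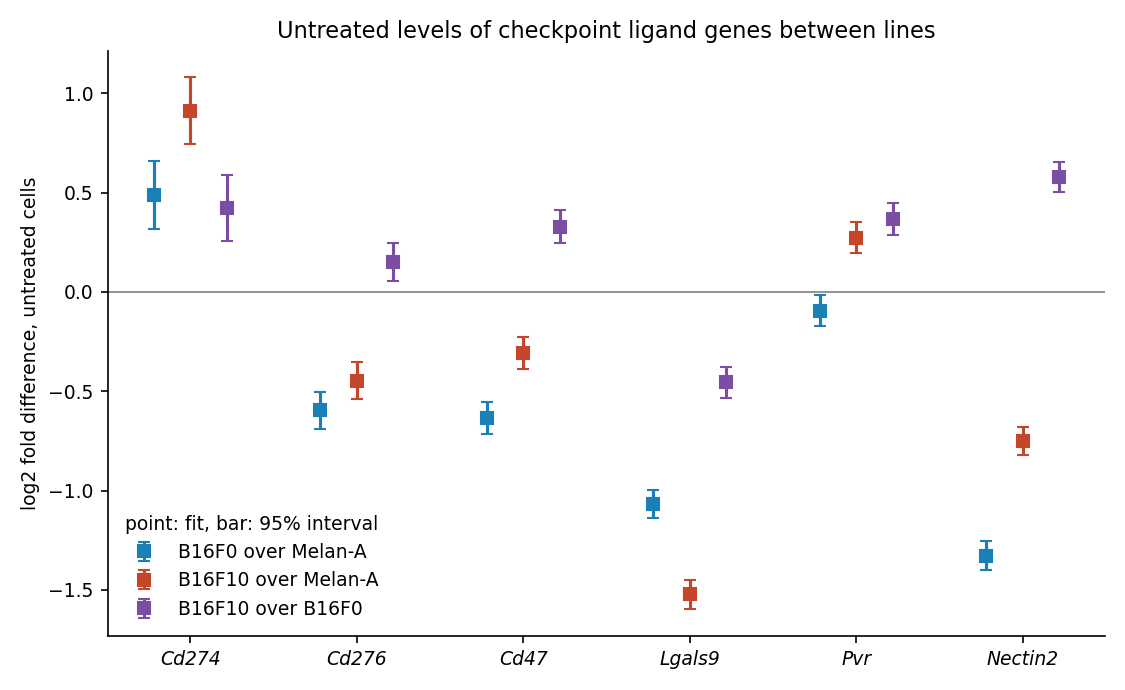
Log2 fold difference between untreated lines for the 6 expressed ligand genes, with 95% intervals from the edgeR fit. Cd274 is above 0 in all 3 comparisons, at 0.49, 0.91 and 0.42, while Lgals9 is below 0 in all 3, at -1.07, -1.52 and -0.46.

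The genes that control Cd274 transcription and PD-L1 stability were examined beside Cd274. All 37 genes of this list were tested, and SX-682 raised 18 and lowered 12 in Melan-A, raised 17 and lowered 13 in B16F0, and raised 19 and lowered 13 in B16F10 cells. The median log2 change of the list was 0.064, 0.10 and 0.076, against 0 for all genes. Irf1, the interferon-responsive transcription factor that binds the Cd274 promoter in other systems, rose by 0.48 ± 0.036 in Melan-A (adjusted p = 2.22e-12), 0.79 ± 0.045 in B16F0 (adjusted p = 3.50e-15) and 0.97 ± 0.044 in B16F10 cells (adjusted p = 1.61e-17). Irf9, a transcription factor of type I interferon signaling, rose by 0.62 ± 0.049, 0.49 ± 0.077 and 0.95 ± 0.081 (adjusted p of 6.37e-12, 2.74e-06 and 2.10e-11). Jak2, a kinase of the interferon-gamma receptor, rose by 0.33 ± 0.035, 0.23 ± 0.040 and 0.43 ± 0.040 (adjusted p of 4.02e-09, 1.40e-05 and 1.39e-10).

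In the untreated lines, 13 of the 37 regulators were higher and 21 lower in B16F0 than in Melan-A, and 19 were higher and 17 lower in B16F10. Among them, 7 had the line order of Cd274 with a call in each pairwise comparison (Cmtm4, Jak1, Myc, Nfe2l2, Stub1, Trappc4 and Zdhhc3, named after their values were seen). Of all genes, 35.3% were called higher in B16F0 and 33.4% in B16F10 than in Melan-A, and 30.8% in B16F10 than in B16F0. Calls lower than in Melan-A were made for 40.6% in B16F0 and 40.8% in B16F10. The share of all genes with this line order was not computed. Whether a regulator raises or lowers Cd274 or PD-L1 was not used in picking them. Jak1, a kinase of the interferon receptors, differed from Melan-A by 0.58 in B16F0 and 1.39 in B16F10. Irf1 differed from Melan-A by -1.70 in B16F0 and by -1.65 in B16F10, and Irf9 by -2.98 and -3.36, with an adjusted p of 1.07e-24 or less for these 2 genes. Cd274 was higher in both B16 lines.

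Among genes that act on PD-L1 protein, Usp22, a deubiquitinase that can stabilize PD-L1, rose by 0.38 ± 0.029, 1.18 ± 0.031 and 0.78 ± 0.032 (adjusted p of 5.40e-12, 4.41e-23 and 1.77e-18). Cmtm6, which protects PD-L1 from degradation, fell by 0.19 in Melan-A (-0.19 ± 0.040, adjusted p = 0.000159) and by 0.49 in B16F10 cells (-0.49 ± 0.044, adjusted p = 9.62e-11), and was -0.024 ± 0.044 in B16F0 (adjusted p = 0.704). The counts measure RNA only, and protein was not measured in these libraries.

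**Figure D5:**
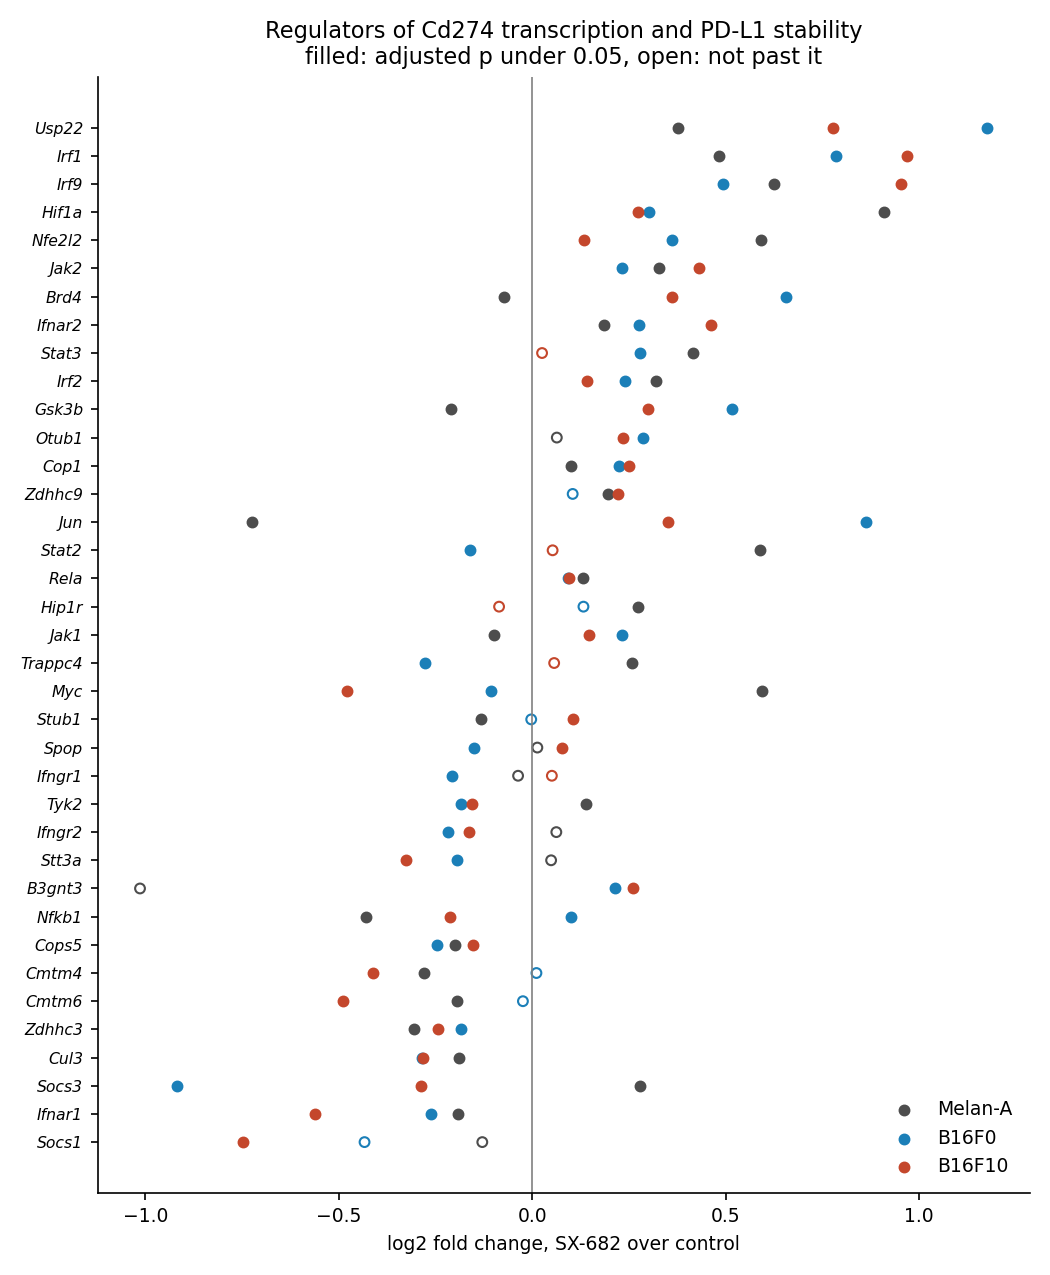
Log2 fold change with SX-682 for the 37 genes of the Cd274 and PD-L1 regulator list, ordered by their mean over the 3 lines. Filled points passed an adjusted p of 0.05 and open points did not. Usp22, Irf1 and Irf9 have the highest means, and all 3 are past the threshold in every line.

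Of the other 29 ligands or stress signals listed beside the members, 20 were tested, and SX-682 raised 3 and lowered 6 in Melan-A, raised 3 and lowered 7 in B16F0, and raised 2 and lowered 6 in B16F10 cells. The median log2 change was -0.15, -0.13 and 0.054, and -0.033, 0.072 and -0.088 over the 12 with more than 3 counts in every library. Of all genes, 48.2%, 50.1% and 50.8% were called in either direction in Melan-A, B16F0 and B16F10 cells. Ulbp1, a ligand of the activating NK receptor NKG2D, fell in all 3 lines, with log2 changes of -1.18 ± 0.074, -0.51 ± 0.069 and -1.42 ± 0.031 (adjusted p of 4.37e-14, 2.75e-07 and 3.46e-25). Lgals3, a galectin that binds LAG-3, rose in Melan-A by 1.21 ± 0.022 (adjusted p = 1.41e-26) and fell in B16F0 (-0.24 ± 0.021, adjusted p = 1.10e-10) and B16F10 cells (-0.18 ± 0.020, adjusted p = 4.90e-09). Ulbp1 and Lgals3 thus moved against Cd274 in the B16 lines. Raet1e, also a ligand of NKG2D, went the other way from Ulbp1. It rose by 0.31 ± 0.067, 0.22 ± 0.076 and 0.40 ± 0.064 (adjusted p of 0.000261, 0.0170 and 4.20e-06).

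For Cd47, 12 genes of its axis were tested. SX-682 raised 3 and lowered 5 in Melan-A, raised 5 and lowered 2 in B16F0, and raised 5 and lowered 5 in B16F10 cells, with median log2 changes of -0.081, 0.035 and -0.0016. The share of all genes called in either direction was 48.2%, 50.1% and 50.8%. Calr, calreticulin, whose surface form is a signal for engulfment, fell in all 3 lines by log2 changes of -0.19 ± 0.018, -0.40 ± 0.018 and -0.81 ± 0.018 (adjusted p of 2.67e-10, 8.93e-18 and 3.56e-25). Its receptor Lrp1 rose by 0.22 ± 0.023, 0.88 ± 0.024 and 0.66 ± 0.024 (adjusted p of 3.07e-09, 8.53e-23 and 7.04e-20). Sirpa, the CD47 receptor, which melanocytic cells also express, had 32.8 to 50.7 RPKM across the 6 groups. It fell in B16F0 (-0.20 ± 0.027, adjusted p = 3.00e-07) and B16F10 cells (-0.32 ± 0.027, adjusted p = 2.02e-11), and was -0.051 ± 0.027 in Melan-A (adjusted p = 0.126). Thbs1, thrombospondin-1, another CD47 partner, fell in Melan-A (-0.33 ± 0.025, adjusted p = 3.76e-12) and B16F10 (-0.79 ± 0.070, adjusted p = 5.70e-11) and rose in B16F0 cells (0.42 ± 0.053, adjusted p = 9.68e-08). Qpctl, which modifies CD47 so that it binds SIRP-alpha, had log2 changes of 0.022 and -0.092 in Melan-A and B16F0 that did not pass, and of -0.23 ± 0.092 in B16F10 (adjusted p = 0.0365). The Qpctl call was lost in DESeq2 (adjusted p = 0.0608) and without either B16F10 control library or the first treated one (adjusted p of 0.121, 0.0832 and 0.268).

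Beside Pvr and Nectin2, 7 genes of the nectin family and its receptors were tested. SX-682 raised 1 and lowered 4 in Melan-A, raised 2 and lowered 2 in B16F0, and raised 2 and lowered 3 in B16F10 cells, with median log2 changes of -0.12, 0.18 and 0.053, or -0.24, 0.047 and -0.083 over the 5 with more than 3 counts in every library. The share of all genes called in either direction was 48.2%, 50.1% and 50.8%. Cadm1, a nectin-like adhesion protein that binds CRTAM, fell in all 3 lines by -0.50 ± 0.041, -0.26 ± 0.036 and -0.42 ± 0.036 (adjusted p of 1.83e-11, 4.34e-07 and 2.69e-11). Cadm4 fell as well, by -0.12 ± 0.026, -0.14 ± 0.028 and -0.28 ± 0.026 (adjusted p of 0.000470, 8.56e-05 and 9.41e-11). Nectin3, which binds both Pvr and Nectin2, fell in Melan-A (-0.35 ± 0.048, adjusted p = 2.86e-07), rose in B16F0 (0.18 ± 0.047, adjusted p = 0.00216) and was 0.053 ± 0.049 in B16F10 (adjusted p = 0.404).

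Beside Nt5e, 14 of 19 genes of adenosine formation and handling were tested. SX-682 raised 3 and lowered 2 in Melan-A, raised 3 and lowered 3 in B16F0, and raised 2 and lowered 1 in B16F10 cells, with median log2 changes of -0.059, 0.080 and -0.13, or -0.029, -0.043 and -0.21 over the 9 with more than 3 counts in every library. The share of all genes called in either direction was 48.2%, 50.1% and 50.8%. Entpd1 (CD39), which makes the AMP that CD73 uses, had 0 to 11 counts per library and was not tested. Enpp1, which can supply AMP by another route, fell in Melan-A cells (-1.84 ± 0.13, adjusted p = 6.54e-13), and was -0.043 in B16F0 (adjusted p = 0.801) and -0.28 in B16F10 (adjusted p = 0.438). Adk, adenosine kinase, fell in B16F0 (-0.35 ± 0.043, adjusted p = 5.17e-08) and B16F10 cells (-0.67 ± 0.045, adjusted p = 1.18e-13), and was 0.031 in Melan-A (adjusted p = 0.581). Slc29a2, a nucleoside transporter, rose in Melan-A cells (0.74 ± 0.18, adjusted p = 0.00128), and was -0.0033 in B16F0 (adjusted p = 1) and -0.45 in B16F10 (adjusted p = 0.0900). Ada, adenosine deaminase, did not pass in any line, with log2 changes of -0.16, -0.23 and -0.21 (adjusted p of 0.397, 0.150 and 0.185).

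Of 13 immune receptors listed beside the ligands, not all of which bind a member, 5 passed the filter. Only Sirpa among them met the rule for named genes, and the rest were low, with mean log2 CPM of -0.36 to -3.69. The number called with SX-682 was 1 for Melan-A and 3 for each B16 line, all of them lower. Of all genes, 24.7%, 25.0% and 25.3% were called lower in Melan-A, B16F0 and B16F10 cells. The median log2 change of the 5 was 0.068, -1.27 and -1.84, and 0.068, -0.82 and -0.40 over the 3 with more than 3 counts in every library.

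The genes whose levels followed each member most closely over the 12 libraries were named by Pearson correlation of log2 CPM among 10956 genes with a mean of at least 1. These values describe 12 libraries that share 6 groups, and are given without a test. For Cd274 they were Dnaja3 (r = 0.995), a mitochondrial co-chaperone, and Nars (0.987), asparaginyl tRNA synthetase. For Pvr they were Slc20a2 (0.962), a phosphate transporter, and Vps26c (0.889). Nectin2 had Igf1r and Notch3 (both 0.995), Lgals9 had Maf and Nmi (both 0.994), Cd276 had Midn (0.989) and Txlna (0.988), and Cd47 had Tmem151a (0.987) and Ndrg2 (0.986). Cd200 had Chadl (0.996) and Apol9b (0.994), and Vsir had Fancc (0.909) and Llgl1 (0.899). In the B16 libraries Cd200 had 0 or 1 counts and Vsir 0 to 5, so these correlations mostly describe the difference between Melan-A and B16 libraries. Between members, Cd274 ran against Cd276 (r = -0.888) and Lgals9 (-0.758), Cd47 ran with Nectin2 (0.885), and Pvr and Nectin2 had an r of 0.535.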

How the data were processed

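RNA of cultured Melan-A, B16F0 and B16F10 cells, untreated or with SX-682, was sequenced in 12 libraries, and the authors counted reads per gene. The deposited counts are whole numbers without normalization for 34513 genes on GRCm38 (mm10) coordinates, and the submitters' processing notes name cutadapt, STAR and DESeq2. The counting program, its strand setting and the version of each tool are not given in the sources used here. Each of the 12 count columns names its library. Groups and replicate numbers came from the labels.

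The 10 members and the lists set beside them were chosen with earlier results of these data known. Promoter motifs were chosen after values were seen, and the IRF element was shortened by 1 base after a longer form was found in the Lgals9 but not in the Cd274 window. In each list, the text names the 3 genes with the largest SX-682 change in any line (mean log2 CPM of at least 1, adjusted p under 0.05) and Irf1, Jak2, Cmtm6, Entpd1, Ada, Qpctl and Sirpa. Raet1e was added after its values were seen. A regulator of Cd274 in the list as first written is not reported here. For each member the 2 genes with the highest correlation are named.

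The test was edgeR 4.0.16 (quasi-likelihood, R 4.3.3) on all 12 libraries in a single fit, after TMM scaling and filterByExpr (18338 genes tested). The prior count was 0.125, and p-values were adjusted by Benjamini-Hochberg over all tested genes at 0.05. Residual degrees of freedom were 6 and prior degrees of freedom 21.9. Standard errors came from the F statistic. RPKM used the gene lengths of the deposited table. A floor of 3 counts per library was used, and the medians over genes above it in every library were added after values were seen. Floors cover counting error only. With 2 libraries per group, the smallest two-sided p of an exact permutation test is 0.333. The tests therefore use a spread estimated over all genes and groups. Replicates differed by more than sampling noise (chi-square per gene 2.82 to 4.97) and were counted separately.

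Tested on simulated counts for the SX-682 comparisons (18052 genes tested), the fit recovered 92, 90 and 92 of 100 genes changed by 0.5 on the log2 scale in Melan-A, B16F0 and B16F10, and 99, 100 and 97 of 100 changed by 1, with 5, 4 and 14 false calls. The simulation gave every gene the same spread between replicates and changed only 100 well-expressed genes at each size. In the data, 48.2% to 50.8% of all genes were called with SX-682, so these counts are not error rates for the data. The alternatives were DESeq2 1.42.0, other scalings, filters, prior count and thresholds, a separate fit for the groups compared, replicate blocks and each library left out. Figures were drawn with matplotlib 3.10.9.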

Additional observations from a re-analysis of the deposited data

Results flagged for a closer look

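Among the ligand genes, 5 were marked because the change with SX-682 differed among the 3 lines in edgeR's test of the difference itself, as did 47.4% of all genes. The log2 change of Cd274 ranged over 0.92 among the lines, the largest range of these 5, with the lowest change in Melan-A (adjusted p = 1.15e-07). That of Pvr ranged over 0.90 and took opposite signs in Melan-A and B16F10 (adjusted p = 1.51e-13). Lgals9 ranged over 0.34 (adjusted p = 1.53e-05) and Cd276 over 0.25 (adjusted p = 0.00275), both with the deepest fall in B16F10. Nectin2 ranged over 0.19 (adjusted p = 0.00625), which was not past the threshold without the second B16F0 control library (adjusted p = 0.112). Groups of 2 libraries are too small for a test of single outlying libraries.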

How the results depend on the processing

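Over 116 tested results of single genes and 23 alternative settings, 2555 of 2657 values kept their direction and their side of the threshold. Of the rest, 75 lost a call, 11 gained one and 16 changed sign. These 116 results leave out most Vsir results and some differences of response that were not called. Among those left out are the SX-682 change of Vsir in Melan-A and the Cd276 difference of response between B16F0 and Melan-A. Sign changes of the results left out were not counted, so these counts do not describe every tested result. When a call also needed a log2 fold change of 0.5 or more in size, the number of members called with SX-682 was 1 for Melan-A, 1 for B16F0 and 3 for B16F10. It was then 5 for untreated B16F10 against Melan-A and 1 for B16F10 against B16F0. For the differences of response it was 1 for B16F0 against Melan-A, 2 for B16F10 against Melan-A, 0 for B16F10 against B16F0 (3 without this limit) and 2 among the 3 lines. Of all genes, 16.3%, 19.4% and 21.5% passed this limit with SX-682, 50.3% and 33.9% in those 2 untreated comparisons, and 12.3%, 11.8%, 8.41% and 20.4% for the differences of response. With each library left out in turn, the members called were 6 to 6, 5 to 5 and 6 to 6 with SX-682 in Melan-A, B16F0 and B16F10, 6 to 8, 7 to 8 and 5 to 6 between untreated lines (B16F0 and B16F10 against Melan-A, B16F10 against B16F0), and 2 to 3, 4 to 4, 3 to 4 and 4 to 5 for the differences of response in the order above.

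Among the values counted, those that changed sign were all of results that were not called, and the cause was not tested. For Pvr in B16F0, the log2 change was -0.014 with library totals and -0.0045 without the filter, and -0.025 to 0.025 with 1 library left out. For Slc29a2 in B16F0 it was 0.012 with RLE scaling, 0.0096 with at least 10 counts in every library, 0.0047 in a separate fit, 0.021 in DESeq2, and -0.35 to 0.32 with 1 library left out. Leaving out 1 library gave -0.13 to 0.34 for Cd200 and -0.095 to 0.16 for Qpctl in Melan-A, and -0.060 to 0.011 for Cmtm6 and -0.16 to 0.059 for Enpp1 in B16F0. The difference of response of Nectin2 between B16F10 and B16F0, -0.13 (adjusted p = 0.0551), passed under 7 alternatives, at -0.15 in DESeq2 (adjusted p = 0.0301).

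The labels link same-numbered control and SX-682 libraries only by their number. Correlations of their deviations were -0.028, -0.011 and -0.0089 in the 3 lines, which cannot show whether they shared a batch. When replicate number was fitted as a block, 6, 5 and 6 members were called with SX-682, 8, 8 and 6 between untreated lines, and 3, 4, 3 and 5 for the differences of response, and a block within each line gave the same counts. Medians over the genes with more than 3 counts in every library, and the Vsir ratios of counts, were added after the values were seen. The limit of 3 counts can leave out genes that fell, and 4 of 24 medians changed sign under it. Other scalings moved the members' levels by at most 7.74%. The depth limits what can be said of Pdcd1lg2, Nt5e, Cd200 and Vsir, each at or near 3 counts in most or all libraries.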
